A study of Mus musculus with 4 samples.

Results

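The AP-1 Fos and Jun family was examined in RNA sequencing of the hypothalamus of western diet (WD)-fed mice. The 6 genes *Fos*, *Fosb*, *Fosl2*, *Jun*, *Junb* and *Jund* were taken by symbol from the 16335 genes of the count table, after the RefSeq transcripts of each gene had been added up. All 6 passed the filter on low counts and were among the 14340 genes tested. They were selected on their known difference in counts between *Tas1r3*-/- WD and WT WD, so that difference is given below as a description. Where a fit over all genes called some of them, nothing is read from the call. *Fosl1*, the remaining Fos gene of the mouse, had no transcript in the table.

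The groups were WT WD and *Tas1r3*-/- WD, both male C57BL/6 mice given a 60% fat diet with a 30% sucrose solution for 12 weeks, with 2 libraries each. The *Tas1r3*-/- line had, per the study's methods, been backcrossed to C57BL/6 mice for several generations. The WT mice were littermates matched for age and weight before the diets were given. On the WD, the study reports, *Tas1r3*-/- mice then gained less weight than WT mice. The groups were therefore not matched for weight when the tissue was taken, and the part of body weight in any difference was not tested. The knockout was a conventional one, in which *Tas1r3*, a subunit of the sweet and umami taste receptors, is missing from every tissue. All mice were killed by injection of urethane before the hypothalamus was taken. The study describes sequencing of WD-fed mice only, so whether a difference between the genotypes depends on the diet cannot be told from these libraries. The study's methods name 3 mice per group for the sequencing, 2 libraries per group were analysed here, and the labels do not say whether each library is 1 mouse, so the spread between libraries of a group may be technical in part.

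AP-1 is a dimer of basic leucine zipper proteins that binds DNA and turns genes on or off. Fos proteins bind DNA only as partners of Jun proteins, whereas Jun proteins can also pair with each other. In neurons, *Fos*, *Fosb* and *Junb* are classic immediate early genes, transcribed within minutes of synaptic activity, calcium entry or cAMP signaling, and their mRNA is widely used as a marker of recently active cells. *Jund* is by contrast steadily expressed in most tissues. The comparison of the genotypes asks whether these factors differ in the hypothalamus when the taste receptor subunit is missing under WD.

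The promoters of these genes are shown because short motifs near the start sites of *Fos*, *Fosb*, *Jun* and *Junb* are the places where signals from cAMP, calcium and kinases are known to act. The windows run 5′ to 3′ on the strand of the gene, from base -120 to base -11 before the RefSeq start, with sequences from RefSeq and positions from a single exact match of each in GRCm39, the build the reads were aligned to. Capitals mark TGACG, which is the half-site of the cAMP response element, the TATA box TATAAA, and TGACATCA, a site through which Jun dimers act on the *Jun* gene.
Fos (chr12:85520544-85520653, plus strand): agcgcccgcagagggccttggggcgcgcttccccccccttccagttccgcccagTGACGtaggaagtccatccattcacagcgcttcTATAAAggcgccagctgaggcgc
Fosb (chr7:19043981-19044090, minus strand): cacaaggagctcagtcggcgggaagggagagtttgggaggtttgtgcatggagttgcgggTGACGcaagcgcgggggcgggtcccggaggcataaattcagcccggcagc
Junb (chr8:85705388-85705497, minus strand): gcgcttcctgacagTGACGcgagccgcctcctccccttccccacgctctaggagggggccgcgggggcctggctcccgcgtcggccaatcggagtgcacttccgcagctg
Jun (chr4:94940470-94940579, minus strand): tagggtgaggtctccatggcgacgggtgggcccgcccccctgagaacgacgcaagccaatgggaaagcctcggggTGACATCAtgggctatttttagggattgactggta

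In the 250 bases before the RefSeq start, with both strands searched, the half-site began at base -66 and also at base -129 of *Fos*, at base -60 of *Fosb* and at base -106 of *Junb*. Of 32851 mouse promoter windows of the same length, 17.8% held it. *Jun* held TGACATCA from base -45, which 2.93% of the windows held, and *Fos* held the TATA box from base -33, which 12.4% held. The full cAMP response element TGACGTCA (which contains the half-site), the AP-1 site TGANTCA and the CArG box were not found in any of the 6 windows, and 1.55%, 6.75% and 1.47% of all windows held them. *Fosl2* and *Jund* held none of the motifs searched, but their RefSeq starts lie 1109 bases downstream and 1210 bases upstream of the start of the gene in GENCODE M39, so another window could hold other letters. For all 6 genes, a motif not found in these 250 bases may still lie outside them. A match is a description of the letters and not evidence of binding.

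The libraries held between 5726320 and 6177693 estimated counts of named genes, and 1 of them stood apart. The library labelled WT WD replicate 2 had a summed level of 26.2 CPM (the usual scale of counts relative to the total of the library) over 10 marker genes of the hypothalamus, against 1209 to 1695 CPM in the other libraries, with *Nkx2-1* at 0. Over 7 thalamus markers it had 1818 CPM, against 291.8 to 420.7 CPM, and over 5 choroid plexus markers 721 CPM, against 8.75 to 18.0 CPM. Cortex and hippocampus markers summed to 269.6 CPM in this library, against 13.31 to 20.13 CPM, with *Slc17a7* alone at 264.8 CPM. *Tas1r3*-/- WD replicate 1 had 1424 CPM over 5 pituitary hormone genes, against 1.48 to 14.6 CPM in the others. Its striatum markers summed to 122.4 CPM, against 57.25 to 74.85 CPM. The fold changes of the 6 genes and the list medians are therefore given with and without WT WD replicate 2, and the part of tissue makeup in any of them was not tested. *Tas1r3*, the targeted gene, was at 6.00 and 4.44 CPM in WT WD against 1.12 and 1.23 CPM in *Tas1r3*-/- WD.

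*Fosb* and *Fosl2* had the largest differences of the family, and both were several times higher in *Tas1r3*-/- WD. *Fos*, *Jun* and *Junb* were higher by smaller steps, and *Jund* was slightly lower. Neither WT WD library reached the lower of the *Tas1r3*-/- WD libraries for 5 of the 6 genes, as for 20.6% of all genes tested, and the reverse held for *Jund*, as for 19.0% of all genes tested. Without WT WD replicate 2, the same 5 genes were above WT WD replicate 1 in both *Tas1r3*-/- WD libraries, as were 37.6% of all genes tested. The median log2 fold change of the 6 genes was 0.64, where it was -0.0057 over all genes tested. Leaving out WT WD replicate 2 gave 0.44 for the 6 (*Fos* 0.56, *Fosb* 2.29, *Fosl2* 2.10, *Jun* 0.31, *Junb* 0.16 and *Jund* -0.16), and leaving out WT WD replicate 1 gave 1.12. Nothing is read from these shares, because the same contrast chose the genes. In bulk tissue, more RNA per cell and more cells of the type that makes it cannot be told apart.

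**Figure D1:**
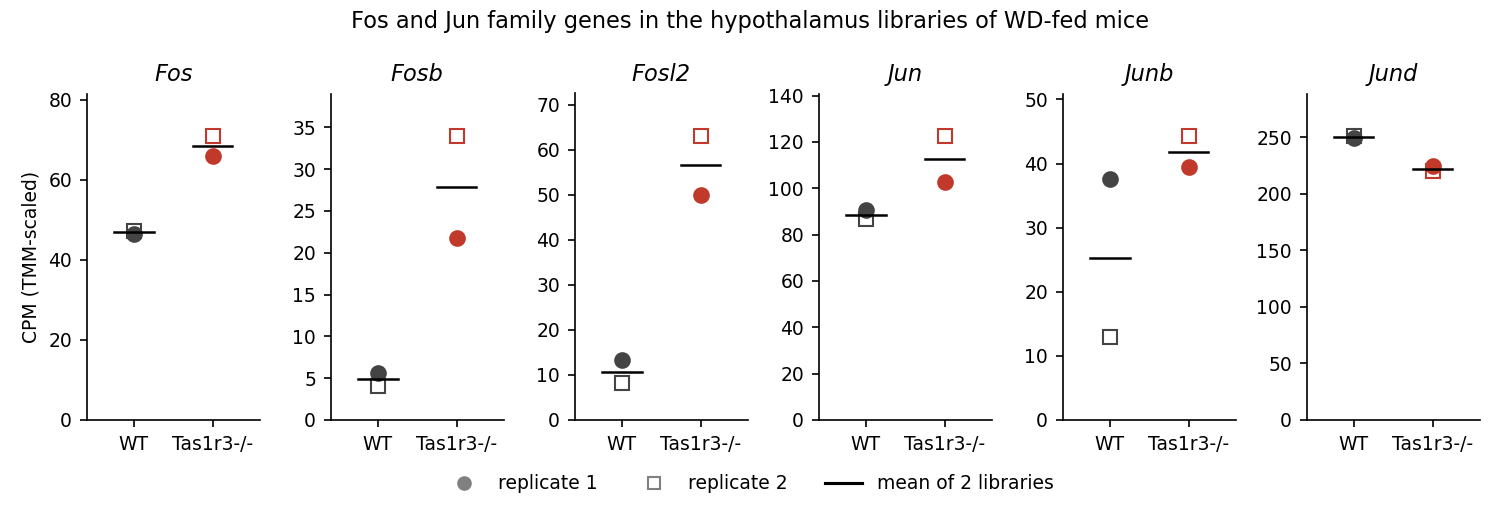
CPM scaled by TMM (vertical axes, each from 0) of the 6 genes in every library of the WT and *Tas1r3*-/- groups, with circles for replicate 1, squares for replicate 2 and lines for the mean of 2 libraries. The groups are apart in all 6 panels, widely for *Fosb* and *Fosl2*, whereas for *Junb* WT WD replicate 1 at 37.6 CPM lies close to the *Tas1r3*-/- WD libraries at 39.5 and 44.3 CPM.

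Among the Fos genes, *Fosl2* (ENSMUSG00000029135, chromosome 5 of GRCm39, 32292707 to 32315186) encodes Fra-2, a Fos protein that lacks the strong activation domain of c-Fos and appears later after a stimulus. In the order replicate 1, replicate 2, which is kept throughout, the estimated counts were 77.1 and 49.5 for WT WD against 311.6 and 360.1 for *Tas1r3*-/- WD. As levels these are 13.2 and 8.23 CPM against 50.04 and 63.03 CPM. The lower *Tas1r3*-/- WD library was 3.79 times the higher WT WD library, a step larger than the 1.61 times between the WT WD libraries and the 1.26 times between the *Tas1r3*-/- WD libraries. The log2 fold change was 2.40 (standard error 0.28, n = 2 per group), the 14th highest of all genes tested. With 1 library left out it ranged from 2.10, when WT WD replicate 2 was dropped, to 2.78, when WT WD replicate 1 was.

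*Fosb* (ENSMUSG00000003545, chromosome 7, 19036621 to 19043976) makes a full-length protein and, by alternative splicing, the truncated ΔFosB, which is known for its long life in neurons that have been active repeatedly. Its level was 5.66 and 4.11 CPM in WT WD against 21.8 and 33.96 CPM in *Tas1r3*-/- WD, from 33.3 and 25.0 estimated counts against 136.0 and 194.3. These WT WD values rest on few reads, but the groups were far apart, and the lower *Tas1r3*-/- WD library was 3.85 times the higher WT WD library. The log2 fold change was 2.51 (standard error 0.33, n = 2 per group), the 12th highest of all genes tested, and ranged from 2.15 to 2.79 with 1 library left out.

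The table splits *Fosb* into 2 RefSeq transcripts, NM_001347586 and NM_008036, and which of them encodes ΔFosB is not given in the sources used here. NM_001347586 had 3.15 and 21.6 estimated counts in WT WD against 42.7 and 113.1 in *Tas1r3*-/- WD, and NM_008036 had 30.2 and 3.397 against 93.4 and 81.2. Both transcripts were thus higher in both *Tas1r3*-/- WD libraries than in either WT WD library. NM_001347586 took 9.45% of the gene in WT WD replicate 1 (95% Wilson interval 3.14 to 23.6), 86.4% in WT WD replicate 2 (70.0 to 95.8), 31.4% in *Tas1r3*-/- WD replicate 1 (24.4 to 39.8) and 58.2% in *Tas1r3*-/- WD replicate 2 (51.2 to 65). The share differed between libraries of the same group by more than these intervals, which cover counting error only and not the error of dividing shared reads. No shift of the 2 forms between the genotypes can be read from it.

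*Fos* (ENSMUSG00000021250, chromosome 12, 85520658 to 85524047) encodes c-Fos, the member whose mRNA rises and falls fastest after a stimulus. It was at 46.5 and 47.2 CPM in WT WD against 65.9 and 70.9 CPM in *Tas1r3*-/- WD. The 2 libraries within each genotype lay within 1.08 times of each other, and the groups were 1.40 times apart at their nearest. The log2 fold change was 0.55 (standard error 0.13, n = 2 per group), which 6.05% of all genes tested exceeded, and it stayed between 0.49 and 0.60 with 1 library left out. Between the WT WD libraries, of which only replicate 1 held the hypothalamus markers, *Fos* differed 1.02 times. The same figure was 1.01 for *Jund*, 1.05 for *Jun*, 1.38 for *Fosb*, 1.61 for *Fosl2* and 2.89 for *Junb*. The part of tissue makeup in these steps was not tested.

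Within a library, the ratio of 2 genes does not depend on how libraries are scaled. The estimated counts of *Fosl2* were 0.285 and 0.173 times those of *Fos* in WT WD against 0.757 and 0.888 times in *Tas1r3*-/- WD. The ratio of *Fosb* to *Fos* was 0.123 and 0.0873 in WT WD against 0.331 and 0.479 in *Tas1r3*-/- WD. Both genes thus gained on *Fos* in both *Tas1r3*-/- WD libraries. The ratio of *Fosb* to *Fosl2* was 0.432 and 0.505 in WT WD against 0.437 and 0.540 in *Tas1r3*-/- WD, and these ranges overlap.

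Among the Jun genes, *Jun* (ENSMUSG00000052684, chromosome 4, 94937271 to 94940459) encodes c-Jun, the target of the Jun N-terminal kinases and the partner that Fos proteins need. It was at 90.6 and 86.5 CPM in WT WD against 102.7 and 122.5 CPM in *Tas1r3*-/- WD. The groups did not overlap, but the gap of 1.13 times between their nearest libraries was smaller than the 1.19 times between the *Tas1r3*-/- WD libraries. The log2 fold change was 0.35 (standard error 0.14, n = 2 per group), and it was 0.21 without *Tas1r3*-/- WD replicate 2 and 0.47 without *Tas1r3*-/- WD replicate 1.

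*Junb* (ENSMUSG00000052837, chromosome 8, 85701113 to 85705359) encodes a Jun protein that is a weaker activator than c-Jun and can hold it back in a shared dimer. It was at 37.6 and 13.0 CPM in WT WD against 39.5 and 44.3 CPM in *Tas1r3*-/- WD. The WT WD libraries differed 2.89 times, and the lower *Tas1r3*-/- WD library was only 1.05 times WT WD replicate 1. The log2 fold change of 0.73 (standard error 0.49, n = 2 per group) fell to 0.16 without WT WD replicate 2 and rose to 1.69 without WT WD replicate 1. The difference in *Junb* therefore rests on the library that lacked the hypothalamus markers. In GENCODE M39 the gene overlaps *Prdx2* and *Gm65321* on the opposite strand. *Fosl2*, *Jun* and *Jund* also overlap opposite-strand genes, namely *Gm72529*, *Junos* and *Gm11175*. Whether reads were counted by strand is not given in the sources used here.

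*Jund* (ENSMUSG00000071076, chromosome 8, 71151599 to 71153265) encodes JunD, which is made constitutively and restrains cell growth in many tissues. It was the only one of the 6 that was lower in *Tas1r3*-/- WD, at 249.0 and 250.9 CPM in WT WD against 224.4 and 219.9 CPM in *Tas1r3*-/- WD. The libraries of a group lay within 1.02 times of each other, and the log2 fold change was -0.17 (standard error 0.11, n = 2 per group), from -0.19 to -0.16 with 1 library left out. With 67.2% of its bases G or C, *Jund* has the highest GC content of the 6, and with a trend on GC content removed from each library its log2 fold change was -0.04. The table gives its 2 RefSeq transcripts the same count in each library, 726 and 763 in WT WD against 700 and 628 in *Tas1r3*-/- WD, so it holds no information on them apart.

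**Figure D2:**
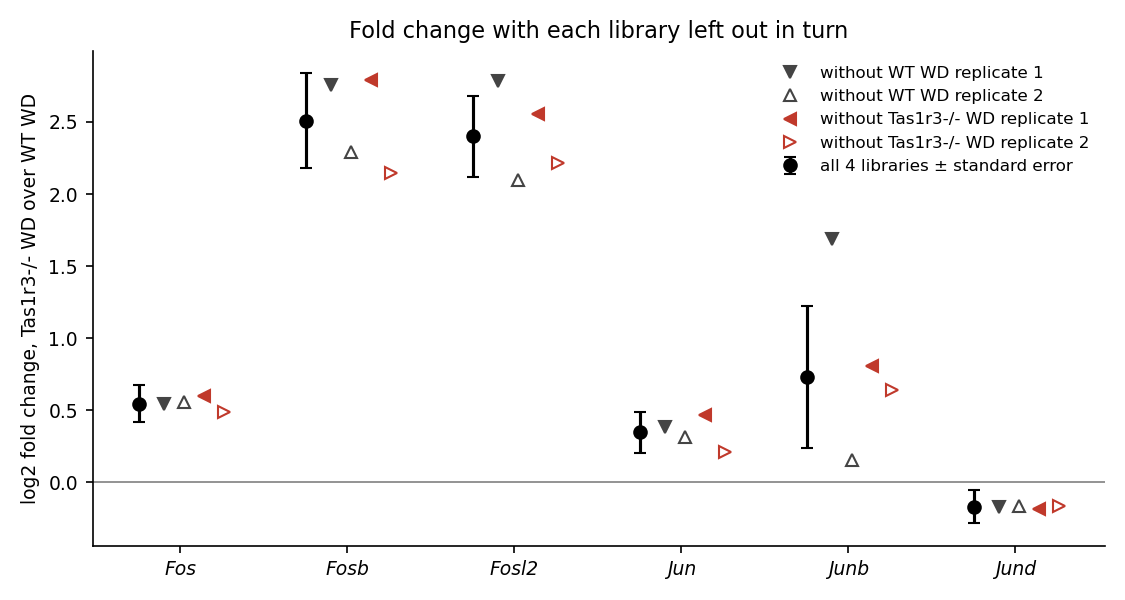
Log2 fold change of *Tas1r3*-/- WD over WT WD (vertical axis) for each gene from all 4 libraries (black, bars are the standard error) and after leaving out 1 library at a time (triangles). *Fosb* and *Fosl2* stay above 2, *Fos* stays between 0.49 and 0.60, *Jund* stays below 0, and *Junb* spans 0.16 to 1.69 depending on which WT WD library is used.

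To set the genes against each other, CPM were divided by the length of the canonical GENCODE transcript in kb. On this scale *Jund* had the highest level, with 149.9 ± 0.773 CPM per kb (SD, n = 2) in WT WD and 133.3 ± 1.91 (SD, n = 2) in *Tas1r3*-/- WD. *Jun* came next at 27.8 ± 0.894 and 35.3 ± 4.41 CPM per kb (SD, n = 2 each), followed by *Fos* at 22.2 ± 0.244 and 32.4 ± 1.67, whose libraries overlapped those of *Jun* in *Tas1r3*-/- WD only. *Junb* was at 13.97 ± 9.60 and 23.15 ± 1.89 CPM per kb. *Fosl2*, at 1.54 ± 0.505 and 8.11 ± 1.32, and *Fosb*, at 1.29 ± 0.289 and 7.37 ± 2.27, were the lowest, and their libraries overlapped each other in both groups. The order of the 6 means was the same in both genotypes.

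In the summed level of the 6 genes per kb, the 3 Fos genes took 11.3% and 11.7% in WT WD against 19.0% and 20.9% in *Tas1r3*-/- WD. *Fosl2* made up 0.846% and 0.563% in WT WD against 3.08% and 3.67% in *Tas1r3*-/- WD, and *Fosb* 0.668% and 0.519% against 2.48% and 3.64%. *Jund* took 66.7% and 71.9% in WT WD against 57.8% and 53.5% in *Tas1r3*-/- WD. The total itself differed less, at 223.9 and 209.4 CPM per kb in WT WD and 232.7 and 246.4 CPM per kb in *Tas1r3*-/- WD. The Jun genes together were at 198.6 and 184.8 CPM per kb against 188.6 and 194.8 CPM per kb, where the groups overlapped. The Fos genes together were at 25.4 and 24.6 CPM per kb against 44.1 and 51.6 CPM per kb, where they did not.

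**Figure D3:**
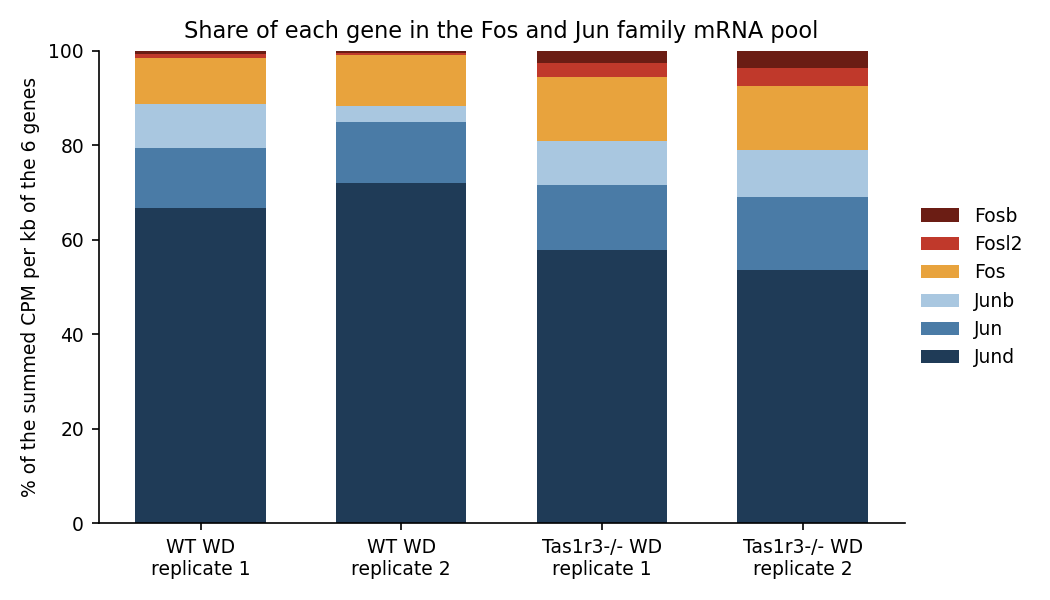
Share of each of the 6 genes in their summed CPM per kb (vertical axis, percent) in each of the 4 libraries. *Jund* is the largest part of every bar, and the Fos genes at the top take 11.3% and 11.7% in WT WD against 19.0% and 20.9% in *Tas1r3*-/- WD.

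The likeness of other genes was measured as the distance between log2 CPM profiles centred over the 4 libraries, among 10868 genes with a mean of at least 10 CPM. These profiles hold the contrast that chose the 6 genes, so nothing is read from their nearness to each other or to other genes. *Fosl2* was the nearest gene to *Fosb* and *Fosb* the nearest to *Fosl2*, at a distance of 0.269. For both, *Cdkn1a*, which encodes the cell cycle inhibitor p21, came next, at 0.432 from *Fosb* and 0.375 from *Fosl2*. It was at 8.23 and 6.25 CPM in WT WD against 28.7 and 34.3 CPM in *Tas1r3*-/- WD. *Hspa1b*, an inducible Hsp70 chaperone, was the next nearest for both, with 13.4 and 5.76 CPM in WT WD against 29.4 and 64.8 CPM in *Tas1r3*-/- WD, and shares reads with its near-identical copy *Hspa1a*.

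*Fos* and *Jun* lay 0.236 apart, but neither was among the 3 nearest genes of the other. The nearest to *Fos* were *Cep295*, *Rnf19a* and *Msh6*, at 0.0223 to 0.0482, and the nearest to *Jun* were *Zfp772*, *Hus1* and *Hdac1*, at 0.0260 to 0.0482. For *Junb* they were *Ntsr1*, *Rxfp3* and *Wscd2*, at 0.115 to 0.118, all low in WT WD replicate 2 like *Junb* itself. *Ntsr1*, the neurotensin receptor, was at 30.0 and 10.5 CPM in WT WD against 28.9 and 34.8 CPM in *Tas1r3*-/- WD. For *Jund* they were *Kat5*, *Slc35c2* and *Scap*, at 0.00974 to 0.0185. With 4 libraries, profiles with small differences lie close to many genes.

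Other genes of the pathway were counted in the test over all genes, with the quasi-likelihood test of edgeR and p adjusted after Benjamini and Hochberg. A differentially expressed gene (DEG) had to be below 0.05 after adjustment and to differ by 1.5-fold or more. Of the 14340 genes, 0 (0.0%) were DEGs, the smallest adjusted p was 0.748, and 786 (5.48%) had an unadjusted p under 0.05. DESeq2 called 8 DEGs (0.0558%), 2 of them *Fosb* and *Fosl2*, from which nothing is read, since this contrast chose them. At least 1.5-fold higher were 3 of the 6 genes, namely *Fosb*, *Fosl2* and *Junb*, and 5.19% of all genes tested, and without WT WD replicate 2 *Junb* no longer was.

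The Egr and Nr4a genes are inducible transcription factors most like the Fos and Jun genes. Of 7 listed, 6 were tested, and edgeR called 0, with 2 at an unadjusted p under 0.05, while DESeq2 called 1, *Egr3*. Both *Tas1r3*-/- WD libraries were higher than either WT WD library for 5 of the 6, beside 20.6% of all genes tested, and the median log2 fold change was 0.84, or 0.72 without WT WD replicate 2. *Egr1*, a zinc finger factor induced along with *Fos*, was at 74.95 and 77.8 CPM in WT WD against 129.9 and 142.5 CPM in *Tas1r3*-/- WD. *Nr4a1*, an orphan nuclear receptor, was at 23.7 and 22.0 CPM against 30.8 and 28.0 CPM. *Nr4a2* was the exception, with 12.5 and 69.9 CPM in WT WD against 18.6 and 19.1 CPM in *Tas1r3*-/- WD, and was high only in WT WD replicate 2. *Egr3*, singled out after its values were seen, was at 3.26 and 2.63 CPM in WT WD against 14.9 and 15.2 CPM in *Tas1r3*-/- WD, and its log2 fold change was 2.35 (standard error 0.26, n = 2 per group).

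The dimer partners are further leucine zipper proteins that pair with Fos or Jun. Of 16 listed, 12 were in the table and 10 were tested, of which 0 were DEGs by edgeR or DESeq2 and 1 had an unadjusted p under 0.05. The median log2 fold change was 0.18, or 0.19 when WT WD replicate 2 was dropped, with 9 of the 10 means higher in *Tas1r3*-/- WD, where 7027 of the 14340 genes tested had a higher mean. Both *Tas1r3*-/- WD libraries were higher than either WT WD library for 5, beside 20.6% of all genes tested, and lower for 1 (*Atf4*), beside 19.0%. The most abundant were *Atf4*, the factor of the integrated stress response, at 144.2 and 165.0 CPM in WT WD against 127.2 and 141.5 CPM in *Tas1r3*-/- WD, *Atf2* and *Mafg*. *Atf2*, a partner of c-Jun on cAMP-type sites, was at 107.7 and 117.8 CPM against 111.0 and 116.9 CPM, so its groups overlapped. *Mafg*, a small Maf protein, was at 42.4 and 38.8 CPM against 44.0 and 42.7 CPM. *Atf3*, a stress-induced partner named after its values were seen, had the lowest p of the list. It was at 1.37 and 0.823 CPM against 3.69 and 4.202 CPM, and its log2 fold change of 1.83 (standard error 0.46) rests on few reads.

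Upstream of the family, 28 kinases and factors that act on Fos and Jun were listed and tested, of which 0 were DEGs by edgeR or DESeq2 and 1 had an unadjusted p under 0.05. That gene, *Mapk7*, which encodes ERK5 and was named after its values were seen, was at 29.2 and 30.4 CPM against 20.2 and 22.6 CPM. The median log2 fold change was -0.013, and it was 0.063 without WT WD replicate 2. Both *Tas1r3*-/- WD libraries were higher than either WT WD library for 9 (32.1%), beside 20.6% of all genes tested. They were lower for 4 (14.3%), beside 19.0%. The Jun N-terminal kinase genes *Mapk10*, at 249.7 and 322.1 CPM against 244.3 and 246.5 CPM, and *Mapk9*, at 241.0 and 249.7 CPM against 266.1 and 260.5 CPM, lay on opposite sides. Without WT WD replicate 2 their log2 fold changes were -0.025 and 0.128, so the lower level of *Mapk10* rests mostly on that library. The MAP kinase phosphatases, which switch these kinases off, had 8 of 10 genes tested and 0 DEGs by edgeR or DESeq2, with 0 at an unadjusted p under 0.05. Their median was -0.09, or 0.28 without WT WD replicate 2. Of the phosphatases, 2 (25.0%) were higher and 1 (12.5%) was lower in both *Tas1r3*-/- WD libraries than in either WT WD library. *Dusp8* was at 167.2 and 191.1 CPM against 172.6 and 197.3 CPM and *Dusp7* at 32.8 and 39.2 CPM against 31.8 and 29.8 CPM. *Dusp1*, itself an immediate early gene, was at 17.3 and 44.6 CPM in WT WD against 26.8 and 22.2 CPM in *Tas1r3*-/- WD, where the groups overlapped.

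Of 24 textbook targets of AP-1, many of them known from other tissues, 21 were in the table and 16 were tested. None was a DEG by edgeR or DESeq2, and 0 had an unadjusted p under 0.05. The median log2 fold change was 0.16, or 0.01 without WT WD replicate 2, and both *Tas1r3*-/- WD libraries were higher than either WT WD library for 4 (25.0%) and lower for 2 (12.5%), near the 20.6% and 19.0% of all genes tested. *Gria2*, a glutamate receptor subunit, was at 361.7 and 214.7 CPM in WT WD against 380.3 and 350.3 CPM in *Tas1r3*-/- WD. The metallothionein genes *Mt1*, at 242.0 and 290.3 CPM against 242.5 and 237.2 CPM, and *Mt2*, at 152.5 and 195.9 CPM against 147.1 and 154.1 CPM, overlapped between the groups.

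**Figure D4:**
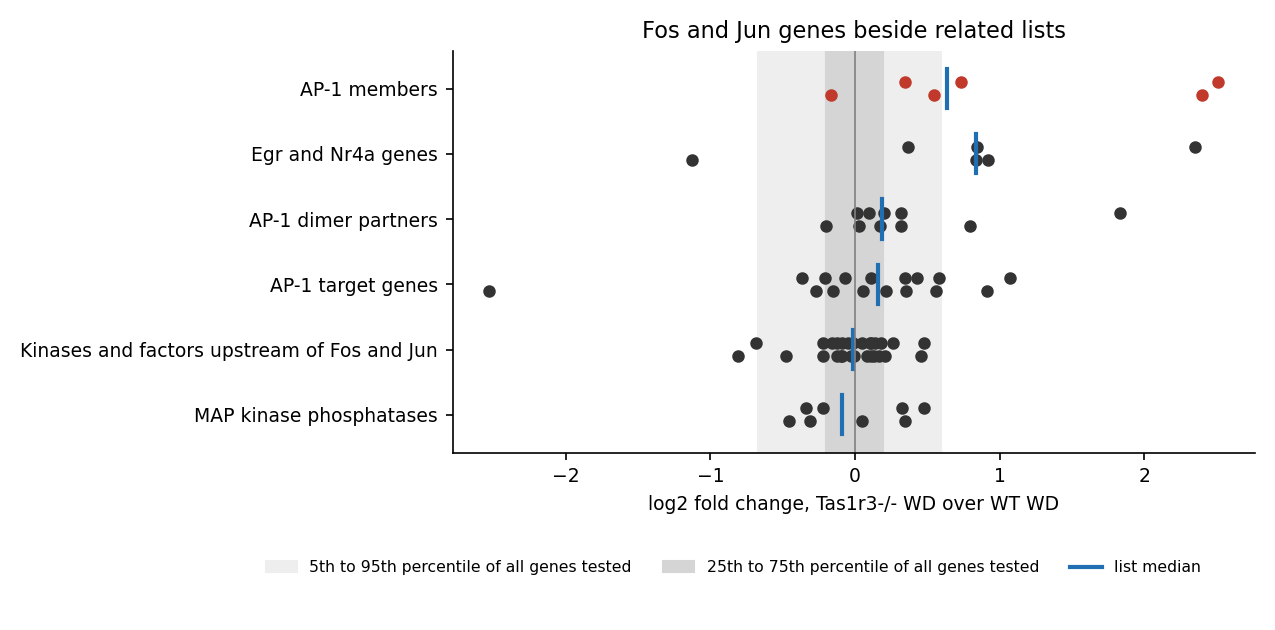
Log2 fold change of *Tas1r3*-/- WD over WT WD (horizontal axis) for each tested gene of the Fos and Jun family (red) and of 5 related lists (dark), with the list median as a bar and the 25th to 75th and 5th to 95th percentiles of all genes tested shaded. The medians of the Fos and Jun genes and of the Egr and Nr4a genes are 0.64 and 0.84, and those of the other lists lie between -0.09 and 0.18.

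Among markers of other cell types, the summed level of 5 ependyma and tanycyte markers was 97.1 and 97.6 CPM in WT WD against 72.3 and 73.5 CPM in *Tas1r3*-/- WD. The genes behind this sum did not move together, since *Col23a1* was at 50.6 and 2.63 CPM in the WT WD libraries and *Foxj1* at 31.0 and 56.9 CPM, and *Foxj1* was the only 1 of the 5 that was lower in both *Tas1r3*-/- WD libraries than in either WT WD library. For 5 neuron markers the sum was 2857 and 4411 CPM in WT WD against 2749 and 3029 CPM in *Tas1r3*-/- WD, where the groups overlapped. Of these markers, 3 were lower in both *Tas1r3*-/- WD libraries than in either WT WD library, beside 19.0% of all genes tested. None (0) was higher in both, beside 20.6%, and the median log2 fold change of the 5 was -0.36. That median leans on WT WD replicate 2. Without this library the log2 fold changes were -0.23 for *Rbfox3*, 0.08 for *Snap25*, 0.22 for *Syt1*, -0.17 for *Stmn2* and -0.15 for *Tubb3*. Endothelium markers, at 177.7 and 204.1 CPM against 178.4 and 181.7 CPM, and those of microglia, at 125.9 and 118.9 CPM against 129.4 and 106.6 CPM, overlapped between the groups. Red blood cell genes were at 379.7 and 1956 CPM in WT WD against 767.6 and 453.3 CPM in *Tas1r3*-/- WD.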

How the data were processed

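RNA was measured in 4 libraries, 2 of WT WD and 2 of *Tas1r3*-/- WD hypothalamus. Per the study's methods and the submitters' processing notes, the Ion Torrent reads were placed on mm39 by STAR, run in Partek, and quantified on RefSeq transcripts, and the authors deposited estimated counts per transcript without normalization. The versions of STAR and Partek are not given in the sources used here. Of 30930 transcripts, 30886 were named by accession and added up to 16335 genes, and 44, with 0.385% to 2.53% of the counts, were left out. A count of 0 allows up to 3 counts, or 0.486 to 0.524 CPM, for counting error only. The design had assumed gene counts, so sums were rounded.

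CPM were scaled by TMM. Genes kept by filterByExpr were tested with edgeR 4.0.16 (quasi-likelihood, R 4.3.3). DESeq2 1.42.0, limma-trend (limma 3.58.1) and other scalings, filters, offsets and left-out libraries were alternatives. The test was tried on simulated counts. Coordinates are from GENCODE M39. From each list, the 3 most abundant tested genes were named (1 is not reported here), and for each of the 6 genes the 3 nearest profiles. The genes and lists were chosen with earlier results of these data known. The p-values measure only the spread between these libraries. Figures were drawn with matplotlib 3.10.9.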

Additional observations from a re-analysis of the deposited data

How the results depend on the processing

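With all 4 libraries, the 5 genes that were higher and *Jund*, which was lower, kept their direction under every scaling, filter, test and offset tried, with log2 fold changes of 0.54 to 0.61 for *Fos*, 2.42 to 2.54 for *Fosb*, 2.27 to 2.44 for *Fosl2*, 0.34 to 0.38 for *Jun*, 0.72 to 0.99 for *Junb* and -0.18 to -0.04 for *Jund*. The median of the 6 ranged from 0.436 (without WT WD replicate 2) to 1.12 (without WT WD replicate 1) with 1 library left out. DESeq2 gave 8 DEGs among all genes, 2 of them in the Fos and Jun family and 1 among the Egr and Nr4a genes, against 0 with edgeR. With 1 library left out, the remaining library of its group was assumed to vary like the other group, and edgeR's DEGs ranged from 0 to 2149, with 23 without WT WD replicate 2 and the highest count without WT WD replicate 1. DEGs then ranged from 0 to 3 in the family, 0 to 4 among the Egr and Nr4a genes, 0 to 1 among the dimer partners, 0 to 4 among the upstream factors, 0 to 2 among the phosphatases and 0 to 6 among the targets, each highest without WT WD replicate 1. The cause was not tested. The fit with the highest counts in the lists also had the highest count over all genes. Nothing is read from the calls in any list, because each of these fits left 1 library in a group. For the family, nothing is read from any call, because the same contrast chose its genes. The upstream median turned from below to above 0 with limma-trend (0.0127), the replicate block (0.00537), the GC offset (0.00309) and both together (0.00355), and ranged from -0.0144 (without *Tas1r3*-/- WD replicate 2) to 0.0719 (without WT WD replicate 1) with 1 library left out. The phosphatase median then ranged from -0.192 (without WT WD replicate 1) to 0.276 (without WT WD replicate 2). The replicate block gave 0 DEGs and 708 genes at an unadjusted p under 0.05, against 786 without it. Deviations of same-numbered libraries correlated at 0.0821, so the numbers were not taken to pair the samples. The block changed no call, but with 0 DEGs in both fits this says nothing on pairing. The share of *Fosb* transcripts per kb was not run, because no lengths of RefSeq transcripts were used here.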
